A study of Mus musculus with 6 samples.

Results

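Cholesterol and fatty acid synthesis was followed through 33 genes, each found once by its symbol among the 53090 gene rows of every library. They were taken from textbook pathway membership and cover the enzymes from acetyl-CoA to cholesterol, the sterol regulatory element-binding proteins (SREBPs) with the proteins that control them, 1 sterol carrier, and the enzymes that make, lengthen and desaturate fatty acids. Total RNA was sequenced from mouse neutrophils isolated from liver (3 libraries) and from blood (3 libraries). All 6 libraries came from mice given DDC (3,5-diethoxycarbonyl-1,4-dihydrocollidine), a porphyrinogenic diet used as a model of bile duct injury, for 1 week, so that both groups carry the injury and no untreated group enters. Liver neutrophils were collected on anti-Ly6G magnetic beads after a Percoll density gradient of the liver suspension. Blood neutrophils were collected on the same beads after lysis of the red cells. The sources used here give no strain, sex or age of the mice, and do not say whether equally numbered liver and blood libraries came from 1 mouse. The p-values therefore measure the spread between these samples, which may be partly technical, and the isolation step differs between the groups together with the tissue.

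Cholesterol is built from acetyl-CoA through mevalonate, isoprenoid diphosphates, squalene and lanosterol, and fatty acids are built from the same acetyl-CoA by acetyl-CoA carboxylase and fatty acid synthase. SREBPs are membrane-bound transcription factors: SCAP escorts them from the endoplasmic reticulum to the Golgi when sterol is low, and the INSIG proteins hold SCAP back when sterol is high. SREBP-2, encoded by Srebf2, mainly drives the cholesterol genes, and SREBP-1c, made from Srebf1, mainly drives the fatty acid genes. Insig1 is itself an SREBP target.

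The start-site regions were searched for the sequence elements that SREBPs and their partner NF-Y are known to use. These are the sterol regulatory element and the CCAAT box. RefSeq windows on GRCm38.p6, running from 250 bases before to 50 bases after the transcription start, were matched by symbol for 26 of the 33 genes. The 4 windows below are the 250 bases before the start, 5′ to 3′ along the gene's strand. They include those of Elovl6 and Mvk, which had the largest fold changes among the genes with a window that passed the test. Those of Hmgcs1 and Insig1 were added after the search. Hmgcs1 alone holds the longer element TCACNCCAC, and Insig1 holds CACNCCAC. Acat2 also holds CACNCCAC, but its window is not printed. Capitals mark CACNCCAC, a core of the sterol regulatory element, and CCAAT, each on either strand, so that CCAAT on the other strand reads ATTGG. All 4 lie on the plus strand: Hmgcs1 at chr13:119690101-119690350, Insig1 at chr5:28071162-28071411, Elovl6 at chr3:129532136-129532385 and Mvk at chr5:114444019-114444268.
Hmgcs1: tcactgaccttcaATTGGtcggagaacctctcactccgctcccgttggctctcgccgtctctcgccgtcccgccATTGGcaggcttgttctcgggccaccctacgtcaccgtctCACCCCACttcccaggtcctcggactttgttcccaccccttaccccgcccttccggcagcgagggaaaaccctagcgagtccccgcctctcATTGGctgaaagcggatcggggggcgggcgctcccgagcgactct
Insig1: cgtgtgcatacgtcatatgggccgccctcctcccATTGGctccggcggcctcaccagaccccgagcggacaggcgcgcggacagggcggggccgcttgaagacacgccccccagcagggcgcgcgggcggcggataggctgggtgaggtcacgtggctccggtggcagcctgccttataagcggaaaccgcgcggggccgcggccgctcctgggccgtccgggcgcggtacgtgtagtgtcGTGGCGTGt
Elovl6: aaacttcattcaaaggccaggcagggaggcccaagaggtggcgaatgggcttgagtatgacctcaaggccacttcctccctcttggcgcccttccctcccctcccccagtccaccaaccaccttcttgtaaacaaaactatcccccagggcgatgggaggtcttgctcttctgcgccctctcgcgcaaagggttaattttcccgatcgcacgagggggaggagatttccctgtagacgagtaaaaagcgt
Mvk: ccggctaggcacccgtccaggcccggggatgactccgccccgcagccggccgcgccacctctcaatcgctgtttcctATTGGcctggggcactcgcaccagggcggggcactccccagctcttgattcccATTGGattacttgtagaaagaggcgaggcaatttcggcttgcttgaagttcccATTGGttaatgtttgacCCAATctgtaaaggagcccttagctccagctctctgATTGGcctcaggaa
The Hmgcs1 window holds 1 CACNCCAC match, with 3 CCAAT boxes around it, and the Insig1 window holds 1 of each. The Mvk window holds 5 CCAAT boxes and no CACNCCAC. Neither motif occurs in the printed Elovl6 bases.

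Over the full windows of the 26 genes, CCAAT occurred on either strand in 21 (80.8%), against 41.1% of 27025 genes in the table and 42.4% of the genes that were tested here and have a window. It was present in 9 of the 11 genes called higher in liver that have a window, and in 12 of the 15 others. The longer element TCACNCCAC was found in Hmgcs1 alone of the 26, and in 1.44% of all genes. The shorter CACNCCAC, which is contained in it, was found in Acat2, Hmgcs1 and Insig1, and in 7.12% of all genes. The Sp1 motif GGGCGG was present in 21 of the 26, against 67.2% of tested genes, and the E box CACGTG in 6 of the 26 (23.1%), against 12.0% of tested genes. A match describes letters only, and no test of these shares was made.

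The libraries held between 13054673 and 17579669 expected counts. Levels are given in CPM, counts per 1000000 of the scaled library total. The 14 neutrophil markers were abundant in all 6 libraries, with summed levels of 8293 to 14507 CPM in liver and 23685 to 34955 CPM in blood, and 9 of the 14 were called lower in liver. Markers of other cells differed as well. The 18 hepatocyte markers summed to 21.3, 178 and 292 CPM in liver 1, 2 and 3, against 9.13, 1.05 and 1.01 CPM in blood 1, 2 and 3. The 14 Kupffer cell and macrophage markers summed to 610 to 977 CPM in liver and 369 to 584 CPM in blood, and the 11 monocyte markers to 2362 to 3356 CPM in liver and 1446 to 1501 CPM in blood. Markers called higher in liver were 7 of 11 tested in the monocyte list, 6 of 13 in the macrophage list, 7 of 9 in the hepatocyte list, 4 of 5 in the endothelial list and 4 of 8 in the dendritic cell list. The hepatocyte gene Fgg had 0 counts in all 3 blood libraries. Platelet markers were called lower in liver for 4 of 6. Erythroid markers, at 33698 and 14773 CPM in blood 1 and 2, were at 143 to 2730 CPM in liver and 367 CPM in blood 3. Liver libraries 2 and 3 and blood libraries 1 and 2 therefore stand apart, and values without them are given beside the results. In bulk RNA, a different share of cells of another type and a different amount of RNA per neutrophil cannot be told apart.

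Of the 33 genes, 32 passed the filter on low counts, and 17 of these (53.1%) rose in liver while 0 fell, by edgeR's quasi-likelihood test with Benjamini-Hochberg adjustment over 13458 genes at an adjusted p under 0.05. Over all genes tested, 17.4% were called higher in liver and 14.2% lower. The median log2 fold change, liver over blood, was 1.34 over the 32 genes and 0.04 over all genes. In 18 of the 32, every liver library lay above every blood library, against 25.8% of all genes, and in 0 of them did every liver library lie below, against 22.7%. These 18 were the 17 called genes and Nsdhl. Of the 32 genes, 10 passed the filter through liver counts and not through blood counts. The 7 of them that were called were Mvk, Fdps, Sqle, Lss, Stard4, Elovl6 and Fads1. Such genes could hardly be tested unless they were higher in liver. The median, the counts of groups that do not overlap and the counts by role include them. The count of calls was therefore also taken over genes that reached the filter's 0.71 CPM, here per unscaled library total, in all 3 blood libraries. Of 22 such genes, 10 were called higher and 0 lower, against 13.2% called higher among all 10815 genes of that kind. The summed level of the 33 genes was 585, 611 and 677 CPM in liver 1, 2 and 3 and 391, 436 and 408 CPM in blood 1, 2 and 3, so the liver libraries were all above the blood libraries. By role, the genes called higher were 3 of 7 enzymes from acetyl-CoA to farnesyl diphosphate (median log2 fold change 0.84), 5 of 11 squalene and sterol ring enzymes (median 0.92), 3 of 6 SREBP control and sterol transfer genes (median 0.79) and 6 of 8 fatty acid genes (median 1.73).

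**Figure D1:**
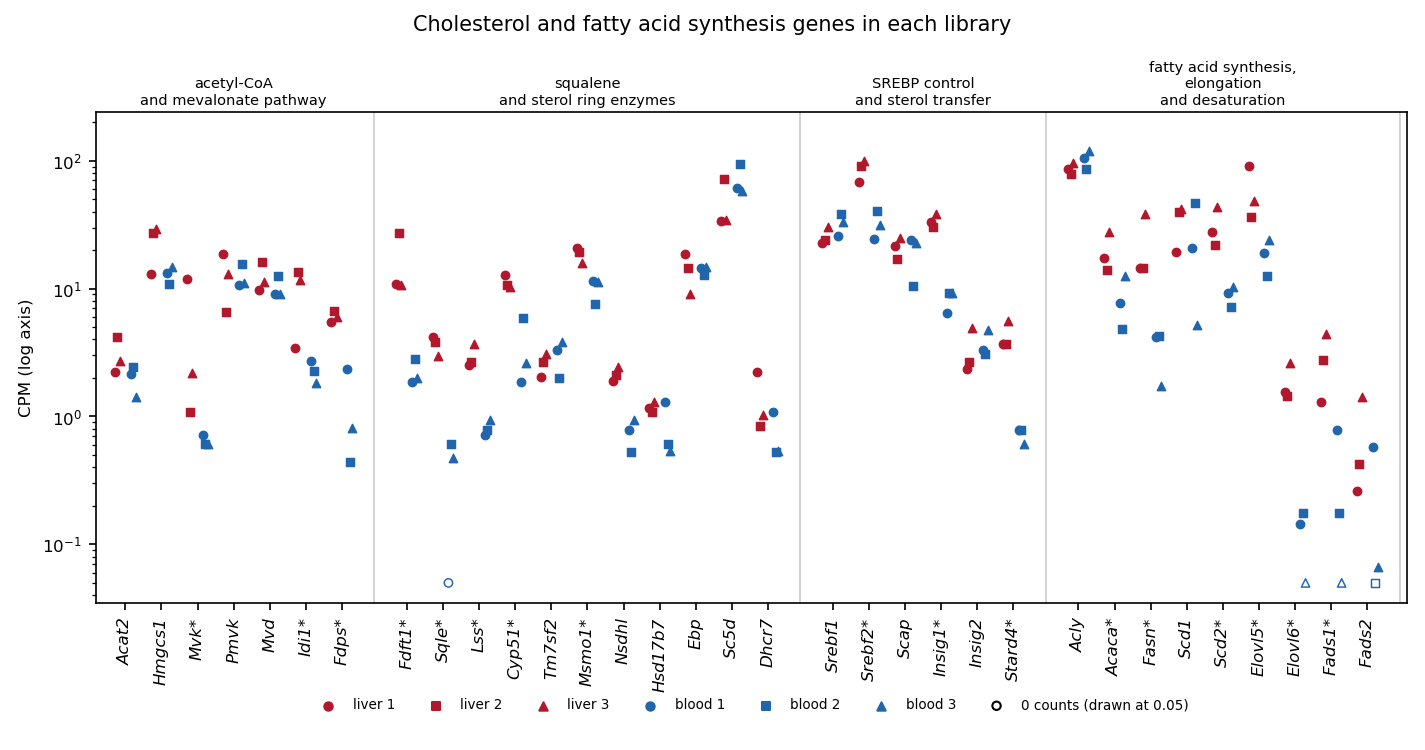
Level of each of the 33 genes in each library, in CPM on a log axis, grouped by role. Red marks liver and blue marks blood, the symbol gives the replicate, open symbols stand for 0 counts drawn at 0.05, and an asterisk marks a gene called higher in liver. For the 17 genes with an asterisk every red point lies above every blue point.

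Among the controllers of the pathway, Srebf2 and Insig1 rose in liver and their paralogs were not called. Srebf2 (chr15:82147181-82205379, GRCm38), which encodes SREBP-2, stood at 68.3, 91.4 and 99.1 CPM in liver 1, 2 and 3 and at 24.3, 40.1 and 31.2 CPM in blood 1, 2 and 3. Its log2 fold change was 1.44 ± 0.24 (SE, n = 3 per group, edgeR adjusted p = 0.00255), with no overlap between the groups. Insig1 (chr5:28071363-28078662), the sterol-regulated anchor of SCAP, was at 33.2, 30.5 and 37.9 CPM in liver and 6.40, 9.29 and 9.20 CPM in blood. This was a log2 fold change of 2.03 ± 0.26 (edgeR adjusted p = 0.000752), and the liver libraries differed little among themselves. Stard4, a soluble protein that carries cholesterol between membranes, was at 3.66, 3.67 and 5.60 CPM in liver and 0.791, 0.789 and 0.604 CPM in blood, a log2 fold change of 2.56 ± 0.49 (edgeR adjusted p = 0.00444). All 3 remained called when each of the 6 libraries was left out in turn. The liver levels of Srebf2 and Stard4 rose in the order of the hepatocyte marker sums, and those of Insig1 did not. Those of Insig1 rose in the order of the macrophage marker sums, 786, 610 and 977 CPM in liver 1, 2 and 3. Without liver 2 and 3 the Srebf2 log2 fold change was 1.05. The part of hepatocytes and macrophages in these values was not tested.

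Srebf1 (chr11:60199089-60222581), which encodes both forms of SREBP-1, was at 22.8, 23.8 and 30.2 CPM in liver and 25.9, 38.0 and 32.96 CPM in blood. The groups overlapped, with a log2 fold change of -0.33 ± 0.23 (edgeR adjusted p = 0.302). Scap, the escort protein, was at 21.4, 17.0 and 24.6 CPM in liver and 24.0, 10.4 and 22.8 CPM in blood, and blood 2 was the lowest of all 6 libraries (log2 fold change 0.14, edgeR adjusted p = 0.777). Insig2, the second anchor of SCAP, had 2.35 to 4.89 CPM in liver and 3.07 to 4.77 CPM in blood (log2 fold change -0.17, edgeR adjusted p = 0.793).

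Within both pairs of paralogs the balance differed between the tissues when levels were divided by exon length. The ratio of Srebf1 to Srebf2, in CPM per kb, was 0.425, 0.333 and 0.389 in liver 1, 2 and 3. It was 1.36, 1.21 and 1.35 in blood 1, 2 and 3. Per kb, Srebf2 was thus the higher of the pair in every liver library and Srebf1 in every blood library. The blood order rests on the exon lengths used, 5634 bases for Srebf1 and 7184 for Srebf2. In CPM the pair was nearly level in blood, and Srebf2 was the higher in blood 2 (40.1 against 38.0). The ratio of Insig1 to Insig2 was 15.8, 12.9 and 8.72 in liver and 2.17, 3.40 and 2.17 in blood, with Insig1 the more abundant in all 6 libraries. These ratios do not depend on the scaling between libraries. They were not tested.

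**Figure D2:**
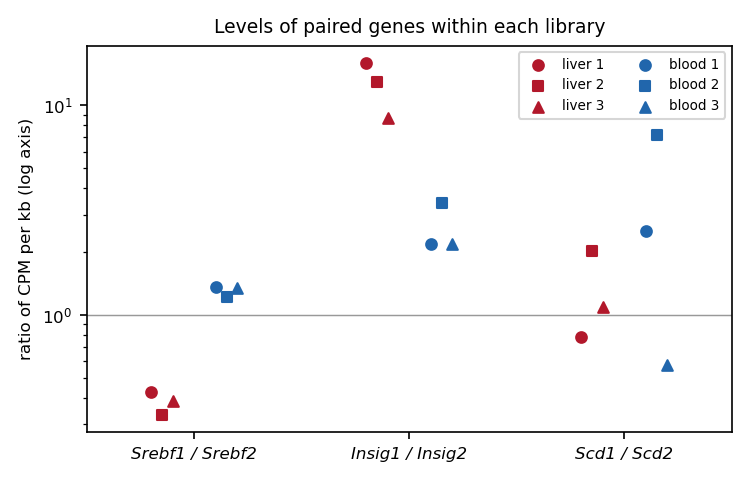
Ratio of the levels of paired genes within each library, in CPM per kb of exon on a log axis, for Srebf1 over Srebf2, Insig1 over Insig2 and Scd1 over Scd2. Red points are liver and blue points are blood, and the grey line marks equal levels: the first pair lies below it in liver (0.333 to 0.425) and above it in blood (1.21 to 1.36), while the third pair overlaps.

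From acetyl-CoA to farnesyl diphosphate, Mvk, Idi1 and Fdps rose in liver, and Acat2, Hmgcs1, Pmvk and Mvd did not pass the test. Fdps (chr3:89093588-89101959), farnesyl diphosphate synthase, was at 5.48, 6.68 and 6.05 CPM in liver and 2.37, 0.438 and 0.806 CPM in blood. The log2 fold change of 2.31 ± 0.59 (edgeR adjusted p = 0.0154) remained called without any 1 library, and was 3.21 without blood 1. Idi1 (chr13:8885501-8892451), the isomerase that makes dimethylallyl diphosphate, was at 3.46, 13.4 and 11.7 CPM in liver and 2.73, 2.28 and 1.81 CPM in blood (log2 fold change 2.06 ± 0.51, edgeR adjusted p = 0.0144). Liver 1 was close to blood 1 for this gene, while liver 2 and 3 were well above. Liver 1 also had the lowest hepatocyte marker sum of the liver libraries, and the part of those cells in the result was not tested. Without liver 2 its log2 fold change was 1.72 and no longer passed the test (edgeR adjusted p = 0.0547).

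Mvk (chr5:114444269-114460591), mevalonate kinase, was at 11.9, 1.08 and 2.19 CPM in liver and 0.719, 0.613 and 0.604 CPM in blood, so that a single library, liver 1, held most of its liver counts. The log2 fold change of 2.96 ± 0.87 (edgeR adjusted p = 0.0301) became 1.32 without liver 1 (adjusted p = 0.217), and the call was also lost without blood 1 (0.0747), blood 2 (0.0902) or blood 3 (0.0872). Hmgcs1 (chr13:119690379-119708260), the cytosolic HMG-CoA synthase, was at 13.1, 27.2 and 29.1 CPM in liver and 13.2, 11.0 and 14.7 CPM in blood. Liver 1 lay within the blood range and liver 2 and 3 above it, in the same order as the hepatocyte marker sums. The part of those cells in the Hmgcs1 result was not tested. The log2 fold change was 0.84 ± 0.33 (edgeR adjusted p = 0.0792). Without liver 1 it was 1.11 and passed the test (adjusted p = 0.0246).

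The other enzymes of this stretch did not pass the test, and their groups overlapped. Acat2, which joins acetyl-CoA units, had a log2 fold change of 0.60 ± 0.48 (edgeR adjusted p = 0.375). Pmvk, phosphomevalonate kinase, had 6.504 to 18.7 CPM in liver and 10.6 to 15.6 CPM in blood (log2 fold change 0.03 ± 0.39, edgeR adjusted p = 0.961). Mvd, mevalonate diphosphate decarboxylase, had 9.73 to 16.3 CPM in liver and 8.996 to 12.4 CPM in blood (log2 fold change 0.29 ± 0.31, edgeR adjusted p = 0.507).

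**Figure D3:**
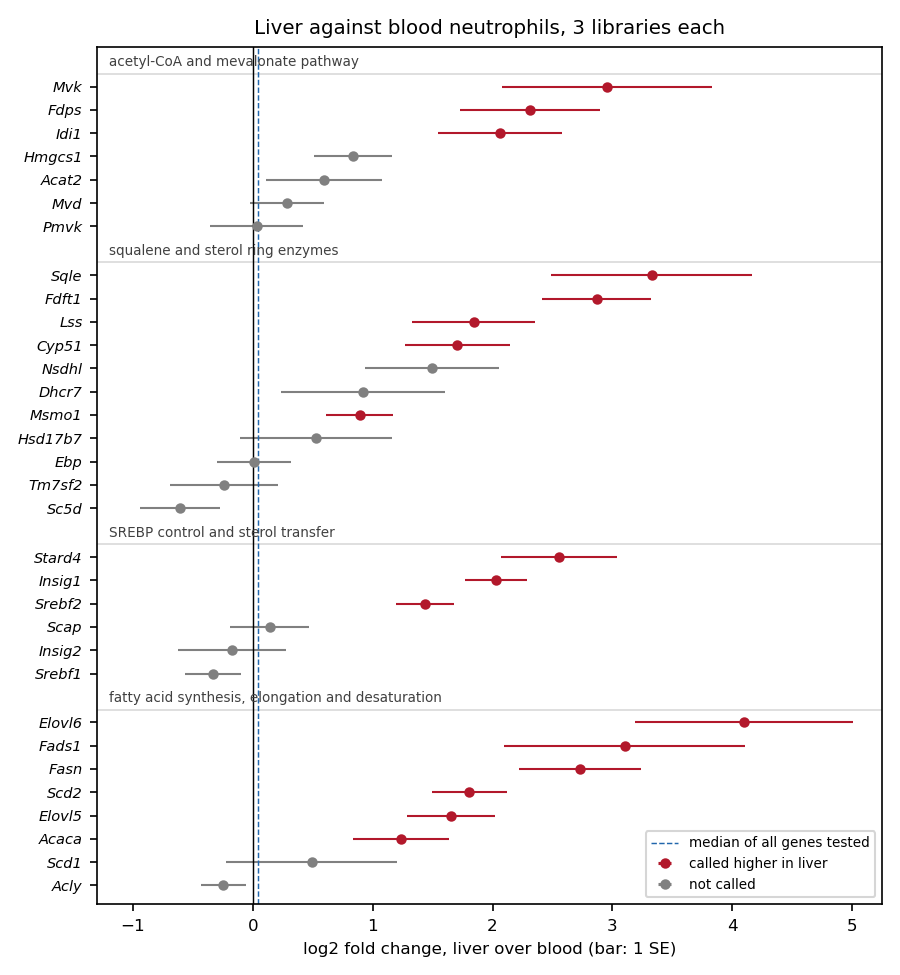
Log2 fold change, liver over blood, of the 32 genes tested, ordered within each role, with bars of 1 SE (n = 3 libraries per group). Red marks genes called higher in liver and grey marks genes not called, the dashed line is the median of all genes tested (0.04), and all 17 called genes lie to its right, from Msmo1 (0.89) to Elovl6 (4.10).

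In the squalene and sterol ring steps, Fdft1, Sqle, Lss, Cyp51 and Msmo1 rose in liver. Fdft1 (chr14:63145150-63179578), squalene synthase, which commits farnesyl diphosphate to sterols, was at 10.9, 27.2 and 10.7 CPM in liver and 1.87, 2.80 and 2.01 CPM in blood. Its log2 fold change was 2.87 ± 0.45 (edgeR adjusted p = 0.00194), and even the lowest liver library was far above the highest blood library. The 3′ ends of Fdft1 and of the cathepsin gene Ctsb share 18.3% of the Fdft1 exon bases on opposite strands, and no source used here says whether counting used the strand. Ctsb was itself called higher (log2 fold change 2.05, edgeR adjusted p = 0.0253). It stood at 696, 1255 and 657 CPM in liver and 183, 366 and 80.4 CPM in blood. For both genes liver 2 and blood 2 were the highest of their groups. The lowest blood library was blood 3 for Ctsb and blood 1 for Fdft1. The part of Ctsb in the Fdft1 value was not tested. Exon bases are also shared with a gene on the other strand in Hmgcs1 (12.1%, antisense Gm48342), Idi1 (9.22%, Gm48574) and Scap (13.2%, 5830462I19Rik, at 1.54 to 4.16 CPM). The same question of strand applies to these levels. Tm7sf2 (12.1%, Vps51) and Fdps (26.7%, Gm43738) share exon bases with a gene on the same strand, where strand cannot assign a read. Vps51 was at 10.6 to 29.5 CPM, and Gm43738 had 0 counts in all 6 libraries. The part of these genes in the values was not tested.

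Sqle (chr15:59315077-59331192), squalene epoxidase, a rate-limiting enzyme of the later steps, was at 4.18, 3.79 and 2.96 CPM in liver and at 0, 0.613 and 0.470 CPM in blood. This gave a log2 fold change of 3.33 ± 0.84 (edgeR adjusted p = 0.0150) on 14 counts over the 3 blood libraries. Fdft1 and Sqle remained called without any 1 library, with log2 fold changes of 2.27 for Fdft1 without liver 2 and 2.70 for Sqle without blood 1. Lss, which closes the ring to lanosterol, was at 2.55, 2.65 and 3.67 CPM in liver and 0.719, 0.789 and 0.940 CPM in blood (log2 fold change 1.84 ± 0.51, edgeR adjusted p = 0.0227). Its groups were separate, but the call was lost without liver 3 (edgeR adjusted p = 0.0804), blood 1 (0.0674), blood 2 (0.0675) or blood 3 (0.0547). The liver levels of Lss also rose in the order of the hepatocyte marker sums, whose part was not tested.

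Cyp51, which demethylates lanosterol, was at 12.7, 10.6 and 10.4 CPM in liver and 1.87, 5.87 and 2.62 CPM in blood (log2 fold change 1.71 ± 0.44, edgeR adjusted p = 0.0164). It lost its call without liver 1 (edgeR adjusted p = 0.0562), blood 1 (0.0550) or blood 3 (0.0575). Msmo1, the C4 methyl oxidase, was at 20.8, 19.5 and 15.95 CPM in liver and 11.4, 7.54 and 11.3 CPM in blood, and at 0.89 ± 0.28 had the smallest log2 fold change of the 17 called genes (edgeR adjusted p = 0.0357). It remained called only without liver 3: the adjusted p was 0.112 without liver 1, 0.0886 without liver 2, 0.0632 without blood 1, 0.108 without blood 2 and 0.0655 without blood 3. Nsdhl, which acts with Msmo1 in removing the C4 methyl groups, was at 1.89, 2.11 and 2.44 CPM in liver and 0.791, 0.526 and 0.940 CPM in blood. Its groups did not overlap, yet the log2 fold change of 1.495 ± 0.56 missed the threshold (edgeR adjusted p = 0.0680).

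The other sterol enzymes gave no call. Sc5d (chr9:42251595-42264256), the lathosterol oxidase, was at 33.6, 72.3 and 34.2 CPM in liver and 61.2, 94.5 and 57.7 CPM in blood, with liver 2 inside the blood range. Its log2 fold change was -0.61 ± 0.33 (edgeR adjusted p = 0.193), and without liver 2 it was -1.08 and passed the test as lower (adjusted p = 0.0230). Ebp, the sterol isomerase, had 9.13 to 18.8 CPM in liver and 12.9 to 14.8 CPM in blood (log2 fold change 0.01, edgeR adjusted p = 0.982). Tm7sf2, a sterol C14 reductase, had 2.02 to 3.09 CPM in liver and 2.02 to 3.83 CPM in blood (log2 fold change -0.24, edgeR adjusted p = 0.714). Hsd17b7, the ketosteroid reductase, and Dhcr7, which makes cholesterol from its immediate precursor, were at or below 2.22 CPM in all 6 libraries, with log2 fold changes of 0.53 (edgeR adjusted p = 0.556) and 0.92 (0.331).

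Of the fatty acid genes, Acaca, Fasn, Scd2, Elovl5, Elovl6 and Fads1 rose in liver. Fasn (chr11:120805846-120824547), fatty acid synthase, was at 14.5, 14.5 and 38.6 CPM in liver and 4.17, 4.29 and 1.75 CPM in blood. The fold change was 2.73 ± 0.51 on the log2 scale (edgeR adjusted p = 0.00423), and liver 3 was the highest library while liver 1 and 2 were level. Acaca (chr11:84129672-84401651), the carboxylase that makes malonyl-CoA for Fasn, was at 17.5, 14.0 and 27.7 CPM in liver and 7.76, 4.82 and 12.5 CPM in blood (log2 fold change 1.24 ± 0.40, edgeR adjusted p = 0.0406). Liver 2 and blood 3 came close to each other, and the call was lost without liver 1 (0.0778), liver 3 (0.139), blood 1 (0.103) or blood 2 (0.109). Acly (chr11:100476353-100528000), which supplies cytosolic acetyl-CoA from citrate, was at 86.2, 78.6 and 95.4 CPM in liver and 105, 85.6 and 118 CPM in blood. These groups overlapped (log2 fold change -0.25 ± 0.19, edgeR adjusted p = 0.347).

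Both elongases rose. Elovl5 (chr9:77917364-77984519), which lengthens polyunsaturated chains, was at 90.1, 36.0 and 48.4 CPM in liver and 19.1, 12.5 and 23.8 CPM in blood (log2 fold change 1.65 ± 0.37, edgeR adjusted p = 0.00973). Liver 1 had the highest level. Of the liver libraries it had the lowest hepatocyte marker sum and the highest monocyte marker sum (3356 CPM). The part of those cells in the Elovl5 result was not tested. Elovl6 (chr3:129532355-129638495), which lengthens saturated and monounsaturated chains, was at 1.57, 1.45 and 2.64 CPM in liver and 0.144, 0.175 and 0 CPM in blood. It had the largest log2 fold change of the 32 genes, 4.10 ± 0.91 (edgeR adjusted p = 0.00874), on 4 counts in blood, and each blood level was below the 0.201 to 0.263 CPM that 3 counts are worth there. Fasn, Scd2, Elovl5 and Elovl6 remained called without any 1 library, with log2 fold changes of 2.09 for Fasn without liver 3 and 3.45 for Elovl6 without blood 3. Acaca, Scd2 and Elovl6 had their highest liver level in liver 3 and their lowest in liver 2. Fasn had the same order, with liver 1 and 2 nearly equal. The macrophage marker sums had it too (977 CPM in liver 3 and 610 CPM in liver 2). Elovl5 and Fads1 did not follow it. The part of macrophages in these values was not tested.

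Of the desaturases, Scd2 and Fads1 rose and Scd1 was not called. Scd2 (chr19:44293674-44306864), a stearoyl-CoA desaturase, was at 27.6, 21.9 and 43.5 CPM in liver and 9.20, 7.18 and 10.2 CPM in blood, a log2 fold change of 1.80 ± 0.31 (edgeR adjusted p = 0.00286). Its paralog Scd1 (chr19:44394455-44407879) was at 19.3, 39.5 and 42.3 CPM in liver and 20.7, 46.3 and 5.24 CPM in blood, where blood 2 was the highest and blood 3 the lowest of all 6 libraries (log2 fold change 0.49 ± 0.72, edgeR adjusted p = 0.637). The ratio of Scd1 to Scd2 in CPM per kb was 0.782, 2.01 and 1.08 in liver and 2.51, 7.19 and 0.573 in blood, so it did not separate the tissues. Reads that both paralogs could have given are divided between them by estimation in the authors' counting.

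Fads1, the delta-5 desaturase, was at 1.31, 2.77 and 4.44 CPM in liver and 0.791, 0.175 and 0 CPM in blood, in liver in the order of the hepatocyte marker sums, whose part was not tested. Its log2 fold change of 3.10 ± 1.00 (edgeR adjusted p = 0.0410) was 4.98 without blood 1 and 2.47 without blood 3, and the call was lost without liver 1 (0.0516), liver 2 (0.0815), liver 3 (0.131), blood 2 (0.121) or blood 3 (0.0677). Fads2, the delta-6 desaturase, was the gene that did not pass the filter, with 33 counts summed over liver and 9 summed over blood.

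By level per kb of exon, the most abundant of the 33 transcripts in liver were Elovl5 (mean 16.5 CPM per kb), Acly (16.4), Srebf2 (12.0), Insig1 (10.9) and Sc5d (9.60). In blood they were Acly (19.5 CPM per kb), Sc5d (14.6), Pmvk (7.27), Ebp (6.07) and Srebf1 (5.73). Acly and Sc5d were thus high in both tissues, while Elovl5, Srebf2 and Insig1 were among the 5 most abundant in liver alone. The order of close neighbours, such as Elovl5 and Acly in liver, was not resolved, since Elovl5 ranged over 36.0 to 90.1 CPM among the liver libraries.

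Values without the libraries that stand apart were as follows. Without liver 2 and 3, leaving liver 1 with its low hepatocyte markers against the 3 blood libraries, 5 of the 33 genes were called higher (Mvk, Fdft1, Insig1, Scd2 and Elovl5) and 0 lower, against 5.00% of all genes called higher. In that fit the lone liver library is assumed to vary like the others. Of the 12 genes whose call was lost, Idi1 had a log2 fold change of 0.56 against 2.06 with all libraries, and Fads1 1.95 against 3.10. The other 10 were positive as well. They were at 2.13 for Fdps, 3.47 for Sqle, 1.59 for Lss, 1.83 for Cyp51 and 0.999 for Msmo1. Further values were 1.05 for Srebf2, 2.27 for Stard4, 1.02 for Acaca, 2.04 for Fasn and 3.77 for Elovl6. Without blood 1 and 2, those with the most erythroid transcripts, 12 genes were called higher and 0 lower, against 8.91% of all genes. There the lone blood library is likewise assumed to vary like the others, and Scd1, among the 12, rests on its 5.24 CPM in blood 3. Without liver 3 and blood 1, 10 genes were called higher, against 11.9% of all genes. Leaving out 1 library at a time, between 12 and 14 genes were called higher, against 12.3% to 13.8% of all genes, and 10 of the 17 remained called each time: Fdps, Fdft1, Sqle, Srebf2, Insig1, Stard4, Fasn, Scd2, Elovl5 and Elovl6. Of these 10, Fdps, Sqle, Stard4 and Elovl6 passed the filter of the fit with all libraries through liver counts and not through blood counts. The counts without libraries were not restricted to genes that passed in blood. The summed hepatocyte, macrophage and monocyte markers were higher in every liver library than in every blood library, as were these 10 genes, and the part of those cells in the values was not tested.

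**Figure D4:**
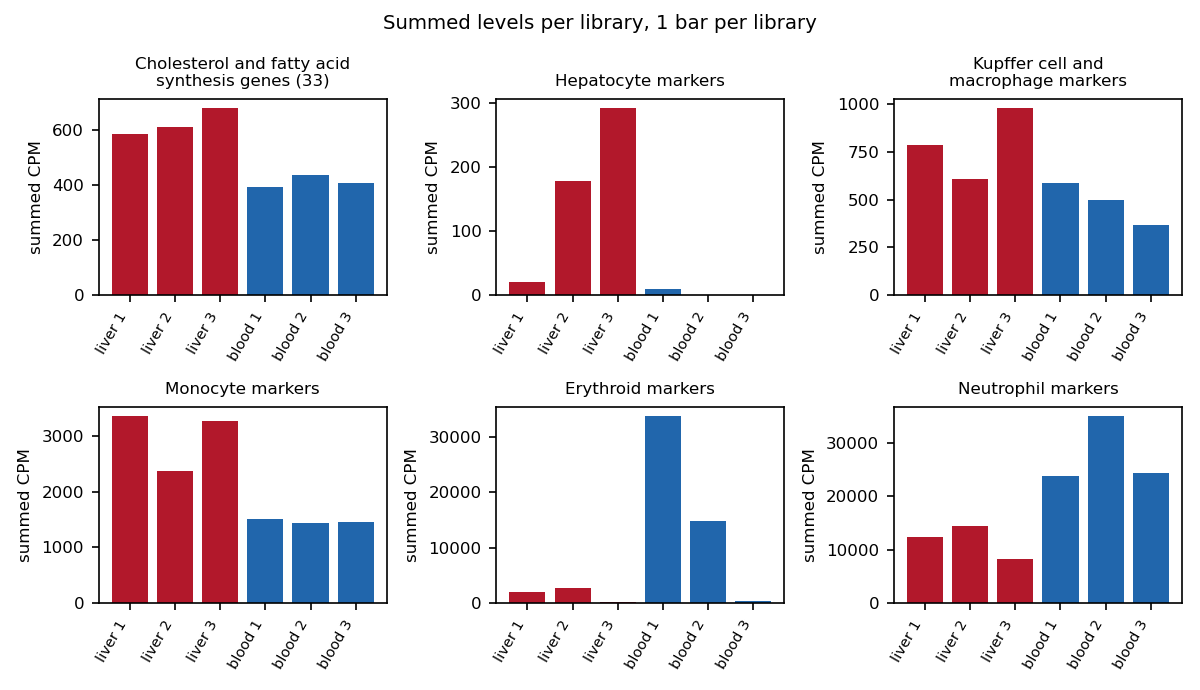
Summed CPM per library of the 33 synthesis genes and of 5 marker lists, 1 bar per library, each panel on its own linear axis from 0. The synthesis genes are higher in all 3 liver libraries (585 to 677 against 391 to 436 CPM), the hepatocyte markers differ widely among the liver libraries (21.3 to 292 CPM), and the neutrophil markers are lower in liver.

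The other genes of the sterol and fatty acid pathways are given for comparison. Of 91 such genes, which were listed by function, 75 were tested, 19 were called higher in liver and 13 lower, beside 17.4% higher and 14.2% lower over all genes. Nothing particular to a list is read from these counts. The list on cholesterol uptake and endosomal release gave 6 higher and 1 lower of 14 tested (median log2 fold change 0.64). In it Lrp1, an endocytic receptor (log2 fold change 3.35, and 3.97 without blood 1), and Lipa, the lysosomal acid lipase (1.44), rose. Scarb1, the HDL receptor (1.46), lost its call without liver 1, liver 3, blood 1 or blood 3 (edgeR adjusted p up to 0.122). Of 6 tested genes of esterification and efflux, 3 rose and 0 fell: the sterol 27-hydroxylase Cyp27a1 (log2 fold change 3.67 on 29 counts in blood, 5.20 without blood 1 and 3.07 without blood 3), the efflux transporter Abca1 (1.85) and the cholesteryl ester hydrolase Nceh1 (1.52, lost without any 1 library other than liver 2, with edgeR adjusted p up to 0.130).

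Among 18 tested genes of SREBP processing and sterol sensing, 2 rose and 3 fell (median log2 fold change -0.03). The COPII coat genes Sec24d (log2 fold change 3.14, and 3.95 without blood 1) and Sec24a (2.93), whose proteins load cargo for the Golgi, rose, while Sec23a (-0.80) fell. The Sec23a call was lost without liver 1, liver 3, blood 1 or blood 3 (edgeR adjusted p up to 0.0959). Of 12 tested genes of the mevalonate, isoprenoid and sterol branches outside the 33, 3 rose and 1 fell (median 0.22). Among them were Coq2 of ubiquinone synthesis (log2 fold change 1.72), and the dolichol genes Nus1 (0.86) and Dhdds (-0.84), which encode the subunits of 1 enzyme and were called in opposite directions. Nus1 lost its call without liver 1, liver 3, blood 1 or blood 2 (edgeR adjusted p up to 0.112), and Dhdds without liver 1, liver 2, liver 3 or blood 2 (up to 0.1104).

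Genes that supply acetyl-CoA and NADPH to synthesis gave 2 that rose and 5 that fell of 13 tested, with a median log2 fold change of 0.68. Acsl4, an acyl-CoA synthetase, rose (1.29), while Mid1ip1, an activator of acetyl-CoA carboxylase (-1.25), G6pdx of the pentose phosphate pathway (-1.10) and the acetyl-CoA synthetase Acss2 (-0.95) fell. The G6pdx call was lost without liver 2 by a narrow margin (edgeR adjusted p = 0.0500047). Of 12 tested elongation and desaturation enzymes outside the 33, 3 rose and 3 fell (median -0.10). The mitochondrial reductase Mecr (log2 fold change 3.21, and 3.83 without blood 3), the elongation enzyme Hsd17b12 (2.73) and the dehydratase Hacd3 (1.68) rose, and the elongase Elovl7 (-2.27) fell. Hacd3 lost its call without liver 1, liver 3, blood 1 or blood 2 (edgeR adjusted p up to 0.0582), and Elovl7 without liver 1, liver 2 or blood 1 (up to 0.0753).

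**Figure D5:**
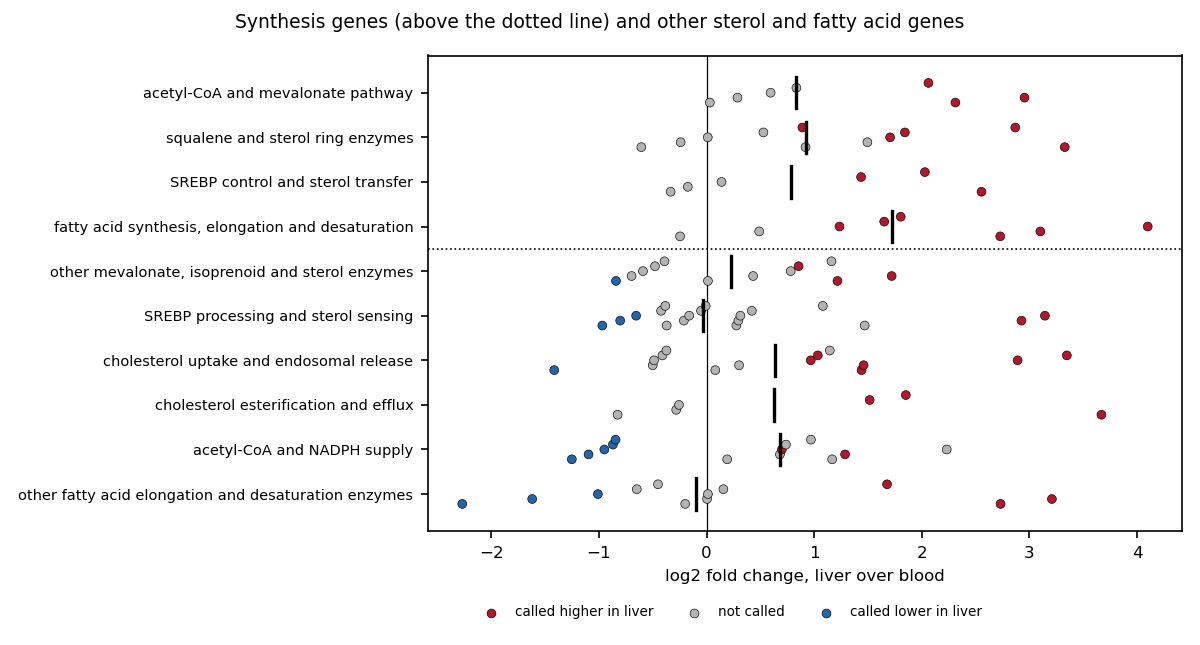
Log2 fold change, liver over blood, of each tested gene, with the 33 synthesis genes in 4 roles above the dotted line (32 tested) and the other sterol and fatty acid genes in 6 lists below it (75 tested). Red points were called higher in liver, blue points lower and grey points neither, and black bars are medians: no blue point lies above the dotted line, and 13 lie below it.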

How the data were processed

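RNA from 3 liver and 3 blood neutrophil samples was sequenced in paired ends from a stranded total RNA library, per the labels' protocols. The deposited values are expected counts per gene. STAR, RSEM, limma and FastQC 0.11.5 and the build GRCm38 are named in the submitters' processing notes; the other versions and the strand setting were not given in the sources used here. The expected counts were rounded to whole numbers. Row identifiers were matched to GENCODE M21 (98.9%) for coordinates and union exon length.

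Genes passing filterByExpr (minimum count 10, minimum total 15) were scaled by TMM and tested in R 4.3.3 with edgeR 4.0.16 (robust quasi-likelihood, tissue as the only term). Calls are at a Benjamini-Hochberg adjusted p under 0.05. SE is the log2 fold change divided by the root of F. CPM uses TMM-scaled totals. The code was tested on simulated data. Alternatives included DESeq2 1.42.0, limma 3.58.1 (voom), other scalings and filters, and leaving out libraries; those without liver 2 and 3 or blood 1 and 2 were chosen after seeing the data. Replicates differed by more than sampling noise (chi-square per degree of freedom 58.7 to 89.5), so each counts as 1 sample. In these libraries 3 counts are worth 0.181 to 0.263 CPM, and counting error alone is larger below that.

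The genes, lists and tests were chosen with earlier results of these data known. All 33 genes are named, with values per library for those called or with a mean of at least 20 CPM in a group; a few further genes are given the same way. From the other lists, the called genes are named, at most 4 each by size of the log2 fold change. Some genes that this rule names are not reported here. Ctsb was named after its overlap with Fdft1 was seen.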

Additional observations from a re-analysis of the deposited data

How the results depend on the processing

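Depth limits the low genes, above all Sqle, Elovl6 and Fads1 in blood, and 3 libraries per group limit all calls. The count of the 33 genes called higher in liver was 17 in the reported fit, 15 to 18 under other scalings, filters and tools, 12 to 14 when 1 library was left out, 10 without liver 3 and blood 1, and 5 without liver 2 and 3. The count called lower was 1 with no filter on low counts and 0 to 1 when 1 library was left out. Of the other pathway genes, 12 were called higher and 4 lower without liver 3 and blood 1, 8 and 3 without liver 2 and 3, and 11 and 4 without blood 1 and 2; leaving out 1 library gave 15 to 20 higher and 8 to 10 lower. The genes that changed sign were not called in the reported fit. Without liver 2 and 3, log2 fold changes were -0.030 for Hmgcs1, -0.11 for Mvd and -0.37 for Scd1. Pmvk was at -0.074 with limma-voom and -0.11 without liver 3 and blood 1. The Ebp log2 fold change was -0.011 with DESeq2, -0.053 with limma-voom, -0.0198 with no filter and -0.11 without blood 1 and 2, where Scap was at -0.16. Leaving out 1 library moved Pmvk from -0.36 to 0.34, Ebp from -0.26 to 0.24, Scap from -0.18 to 0.30, Insig2 from -0.57 to 0.0091 and Scd1 from -0.044 to 1.35. The cause of these changes was not tested. Upper-quartile scaling, library totals and no filter moved the median of all genes to 0.13, 0.11 and 0.42. A test on deposited normalized values was not run, since expected counts alone were used here.

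Whether liver and blood libraries of the same number came from 1 mouse was not stated. Their deviations from the group means correlated at 0.054, 0.16 and 0.023 for numbers 1, 2 and 3. The highest value of any liver and blood pair was that of liver 2 with blood 2. Liver 3 with blood 1 followed at 0.12. These correlations cannot decide whether the libraries were paired, since all are small. With the number as a replicate block, 16 of the 33 genes were called higher and 1 lower (Sc5d, log2 fold change -0.67). The Fads1 call was lost (edgeR adjusted p = 0.0923), with Pmvk at -0.058 and Ebp at -0.042.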
